A study of Mus musculus with 2 samples.

Results

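Classical monocytes, the Ly6c-high blood monocytes that enter the liver from the circulation, were followed in single-cell RNA sequencing of mouse liver non-parenchymal cells. They made up 132 of 13603 cells that passed quality control, with 81 of 7471 normal and 51 of 6132 fibrosis cells. Cells were chosen by measured values of the genes themselves. A member had at least 4 unique molecular identifiers (UMIs, counted RNA molecules) of Ly6c2, Chil3 and F13a1 together and at least 1 of Csf1r and Ccr2 together. It had at most 2 UMIs of Trem2 and Gpnmb, at most 1 of Ace and Treml4, at most 1 of Siglech, and at most 2 of Cd79a, Cd3e and Nkg7. Clec4f, Vsig4 and Cd5l together had to stay under 20 and S100a8 and S100a9 together under 100 UMIs per 10000. Levels of these genes in the members are therefore a description of the choice and not a finding.

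The study compared liver fibrosis with normal liver in male C57BL/6 mice, 8 weeks old. The fibrosis mouse received CCl4, a hepatotoxin, at 15% in olive oil and 0.6 µl per g of body weight by intraperitoneal injection, 2 times a week for 6 weeks. The normal mouse, whose liver the labels call quiescent, received olive oil on the same schedule. Cells were taken 48 h after the last injection, and hepatocytes were depleted by low-speed centrifugation, and debris on a density gradient, before 10x Chromium 3′ capture. Each condition is 1 mouse and 1 library, so no replicate error exists, no test between conditions was made, and every difference below is one between 2 mice. Levels are UMIs of a gene per 10000 UMIs summed over the cells of a class, with an exact 95% Poisson interval in parentheses. Ratios of fibrosis over normal carry an exact conditional 95% interval, and shares of cells an exact binomial (Clopper-Pearson) one. All of these cover counting error only.

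The libraries held 8130 cells with 44062632 UMIs (normal) and 6437 cells with 53288463 UMIs (fibrosis), and 15 cell barcodes occurred in both, none of them in a member. Members had a median of 7026 UMIs in the normal library (2488 to 18849) and 7130 in the fibrosis library (2731 to 22414), so depth was nearly the same. RNA of other lineages was also found in lymphoid cells, which should lack it, and it differed between the libraries. There, the hepatocyte gene Alb stood at 73.9 (normal) and 9.58 (fibrosis) UMIs per 10000, and the fibroblast collagen gene Col1a1 at 0.0710 and 4.33. Lymphoid cells were 1229 normal and 472 fibrosis cells with 3 or more UMIs of Cd79a, Cd3e and Nkg7. They also had at most 1 UMI of Csf1r, F13a1 and Chil3 together and under 100 of S100a8 and S100a9 per 10000. Lymphoid cells with more RNA of these monocyte and neutrophil genes were thus left out. Levels in lymphoid cells are given beside the results.

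Classical monocytes arise in the bone marrow and leave it through the chemokine receptor CCR2. In an injured liver they are recruited in numbers and can become macrophages, and a share of them becomes non-classical (patrolling) monocytes, which are low in Ly6c and depend on the transcription factor NR4A1. Ly6c2, Ccr2 and Plac8 RNA also occur in some T cells and plasmacytoid dendritic cells, so no single gene defines the class.

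The label held for most but not all of the chosen cells. Tyrobp and Fcer1g, the signalling adaptors of myeloid receptors, were not used in the choice. Of 132 members, 113 had at least 6 UMIs of Tyrobp and Fcer1g per 10000, 72 of 81 normal and 41 of 51 fibrosis cells. This limit was set after the cells had been seen. Tyrobp itself was lower in fibrosis members (ratio 0.472), and its part in the number of cells below the limit was not tested. Lymphoid cells had a Tyrobp UMI in 33.4% (normal) and 49.2% (fibrosis). Among the 9 normal cells below the limit, 5 had 3 or more UMIs of Cd3d, Cd3g and Trac, the genes of the T cell receptor complex. A further cell held 4660 UMIs of the immunoglobulin light chain Igkc, 94.0% of all Igkc UMIs of the normal members, and another 78 UMIs of the fibroblast proteoglycan Dcn. Of the 10 fibrosis cells below the limit, 7 had 3 or more T cell receptor UMIs. Members low in adaptor RNA, those under this limit, were 11.1% (5.21 to 20.05) of the normal and 19.6% (9.82 to 33.1) of the fibrosis members, and ratios without them are given for the named genes outside the rule whose call they end.

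Plac8 and Vcan, a cysteine-rich myeloid gene and the matrix proteoglycan versican, were named as markers of the class but played no part in the choice. Plac8 was found in 75 of 81 normal and 38 of 51 fibrosis members, and after thinning to 2000 UMIs per cell in 90.1% (81.5 to 95.6) and 70.6% (56.2 to 82.5). Lymphoid cells had it in 45.2% and 32.4%, and after thinning in 30.2% and 23.7%. Among the 113 cells with adaptor RNA, 1 normal and 7 fibrosis members had no Plac8 UMI. Vcan was detected in 26 normal and 22 fibrosis members. Lymphoid cells had 0.00302 (normal) and 0.0477 (fibrosis) UMIs per 10000 beside 1.20 (0.946 to 1.51) and 2.35 (1.89 to 2.88) in members. After the same thinning, Vcan was seen in 19.8% (11.7 to 30.1) of normal and 19.6% (9.82 to 33.1) of fibrosis members (32.1% and 43.1% unthinned), and in 0% and 0.976% of lymphoid cells (0.163% and 1.48% unthinned, median depths 3727 and 2798.5 UMIs).

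**Figure D1:**
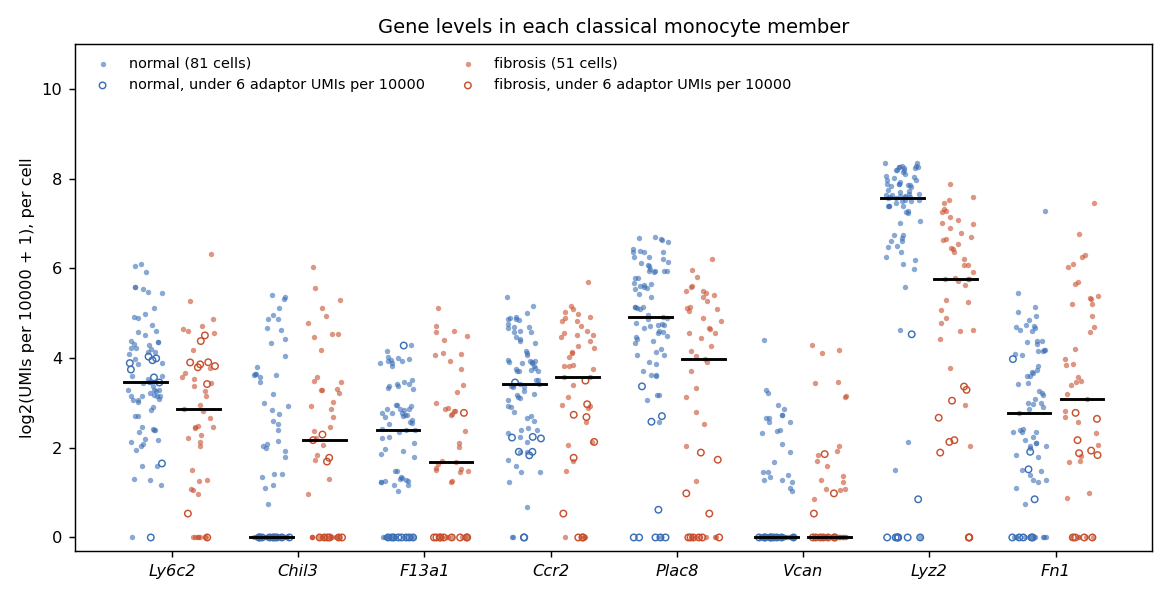
Level of 8 genes in each of the 81 normal (blue) and 51 fibrosis (red) members, as log2(UMIs per 10000 + 1); black bars are medians over cells and open circles are members under 6 UMIs of Tyrobp and Fcer1g per 10000. Lyz2 and Plac8 sit lower in the fibrosis members, while the open circles lie at 22.1 UMIs of Lyz2 per 10000 or below.

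Of the genes that chose the members, Ly6c2 (chromosome 15, 75108158 to 75111970, GRCm38) encodes the surface protein that names the class. It stood at 15.04 (14.1 to 16.04) UMIs per 10000 in normal and 9.86 (8.91 to 10.9) in fibrosis members. Chil3, the chitinase-like protein Ym1, stood at 5.44 (4.87 to 6.05) and 9.02 (8.11 to 10.0). F13a1, the A subunit of coagulation factor XIII, stood at 4.98 (4.44 to 5.57) and 6.22 (5.46 to 7.05). Ccr2 was at 10.5 (9.70 to 11.3) and 12.7 (11.6 to 13.8), and the receptor for colony-stimulating factor 1, Csf1r, at 5.11 (4.56 to 5.71) and 3.85 (3.26 to 4.51). Only some members carried RNA of Ly6c2, Chil3 and F13a1 at once: 32 of 81 normal and 19 of 51 fibrosis members. Chil3 was present in 39 normal members, and its highest cell had 32 UMIs; 33 fibrosis members had it, up to 59 UMIs in a cell.

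Cells just inside the limit were few in both libraries, and cells just outside it were more frequent in the fibrosis library. The sum of Ly6c2, Chil3 and F13a1 was 4 in 3 normal and 2 fibrosis members, and its median was 13 and 12. Cells that met every other criterion with a sum of 3 numbered 6 (normal) and 22 (fibrosis). The limit on Trem2 and Gpnmb, genes of scar-associated macrophages, kept out 3 normal but 172 fibrosis cells that met all other criteria. Those 172 cells were deep (median 13306.5 UMIs) and carried 94.6 UMIs of Lyz2, 28.3 of Gpnmb, 4.46 of Ccr2 and 4.12 of Chil3 per 10000, but only 1.82 of Plac8 and 0.106 of Vcan. Which fibrosis cells are compared with the normal ones therefore depends on this limit.

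The share of members was 1.08% (0.862 to 1.35) of normal and 0.832% (0.620 to 1.09) of fibrosis cells, with a rate ratio of 0.767 (0.529 to 1.10). At these settings a difference was not detectable beyond counting error. When all cells were thinned to 2000 UMIs before the choice, the order turned, with 49 of 6131 normal cells (0.799%) and 40 of 4640 fibrosis cells (0.862%). Without the limit on Trem2 and Gpnmb the shares were 1.12% and 3.64%. With a mitochondrial limit of 5% they lay further apart, at 1.997% (37 of 1853 normal cells) and 0.997% (17 of 1705 fibrosis cells).

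Set beside their neighbours, members were told from patrolling monocytes by genes outside the choice. Patrolling monocytes were cells with 3 or more UMIs of Ace and Treml4 (84 normal, 55 fibrosis). Fn1, which encodes fibronectin, was 12.6 times (9.80 to 16.4) as high in members as in patrolling monocytes of the normal library and 4.17 times (3.61 to 4.84) in the fibrosis library. Without the member richest in Fn1, a normal cell with 291 UMIs and a fibrosis cell with 98, these factors were 8.21 (6.35 to 10.76) and 3.73 (3.22 to 4.33). For Vcan the factor was 19.7 (7.39 to 74.3) and 7.04 (4.11 to 12.8), and for the chemokine gene Ccl9 6.02 (4.46 to 8.28) and 3.70 (2.89 to 4.77). Ms4a4c, a membrane-spanning gene of monocytes, was 3.46 (2.76 to 4.37) and 6.67 (4.12 to 11.4) times as high. Nr4a1, on which patrolling monocytes depend, stood at 4.13 (normal) and 3.85 (fibrosis) in members and 6.72 and 6.49 in patrolling monocytes, a ratio of 0.615 (0.525 to 0.720) and 0.593 (0.485 to 0.722).

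Against Trem2 and Gpnmb macrophages (460 cells in the fibrosis library and 7 in the normal one), fibrosis members had 15.2 times (13.8 to 16.8) the Plac8, 23.8 times (17.5 to 32.4) the Vcan and 5.51 times (4.42 to 6.82) the Ms4a4c level. Lyz2, the gene of lysozyme M, was shared: 67.0 UMIs per 10000 in the fibrosis members and 77.6 in those macrophages, a ratio of 0.864 (0.831 to 0.898). Fn1 was 20.9 in members and 11.9 in the macrophages. In Kupffer cells, the resident macrophages of the sinusoids, the complement gene C1qa reached 44.3 (normal) and 30.9 (fibrosis), while members had 1.92 and 3.80, the latter close to the 3.23 of lymphoid cells. A single normal member held 74 of the 118 normal C1qa UMIs, and without the member richest in C1qa the levels were 0.739 (0.537 to 0.992) and 3.16 (2.62 to 3.77). The fibrosis level was uneven over cells: 8 members high in MHC class II RNA, described below, stood at 13.3 (10.5 to 16.7).

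**Figure D2:**
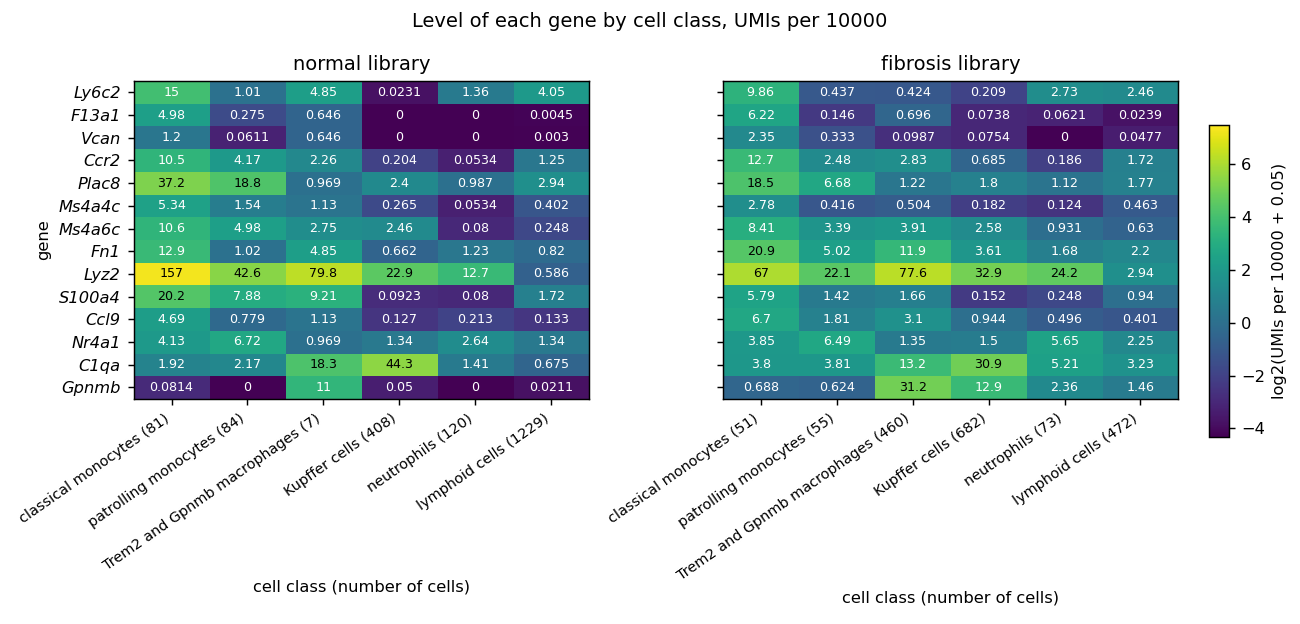
Level of 14 genes (rows) in classical monocytes and 5 other cell classes (columns, with the number of cells) of each library; colour is log2(UMIs per 10000 + 0.05) and each cell of the map prints the UMIs per 10000. Vcan and Ms4a4c are highest in the first column of both libraries (Ly6c2, F13a1, Ccr2 and Gpnmb served in the choice), while Lyz2 is at 67.0 in fibrosis members and 77.6 in Trem2 and Gpnmb macrophages.

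The comparison of fibrosis with normal members covered 4697 genes with at least 0.5 UMIs per 10000 in either library. A gene passed the limit when its ratio was at least 2 or at most 0.5 and its interval lay on one side of 1. By this rule 605 genes (12.9%) were higher and 339 (7.22%) lower in fibrosis members. The median log2 ratio over the 4697 genes was 0.21 in members and 0.27 in lymphoid cells. Of the 605 higher genes, 225 were also at least 2 times higher in lymphoid cells, and 186 of the 339 lower genes were also at most 0.5 times there. For these the part of RNA from other cells in the result was not tested. Genes whose log2 ratio differed from that of lymphoid cells by at least 1 in the same direction numbered 107 higher and 74 lower.

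**Figure D3:**
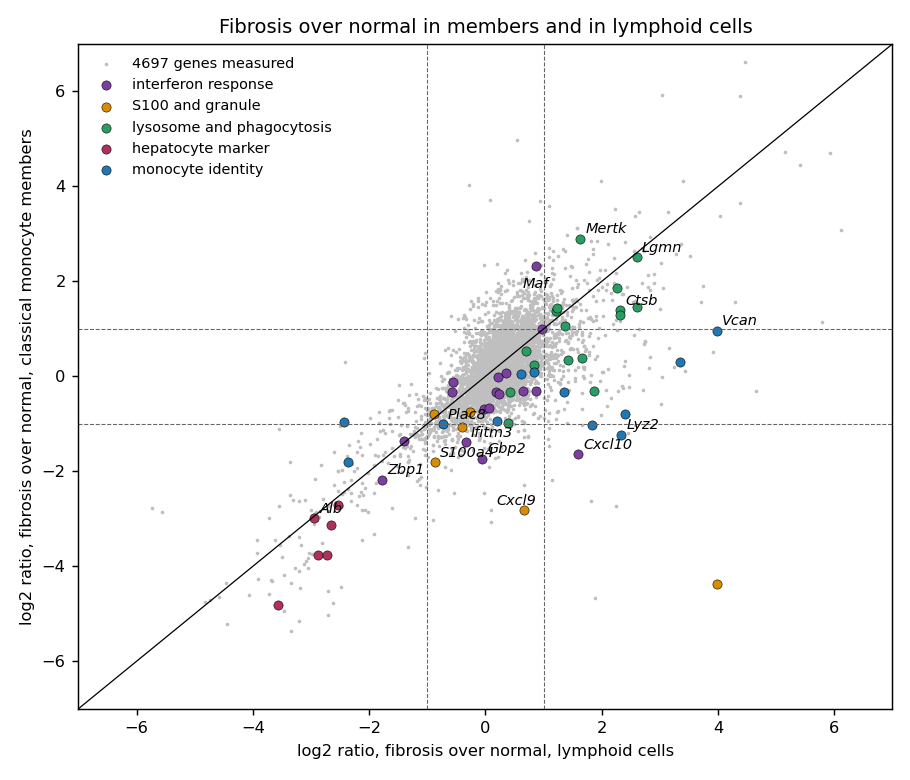
Log2 ratio of fibrosis over normal in lymphoid cells (x) and in classical monocyte members (y) for the 4697 genes measured (grey) and for genes of 5 lists (colours); dashed lines mark 2-fold, the solid line equal ratios, and a library with no UMI is set to 3 UMIs. S100a4, Ifitm3 and Gbp2 lie below the diagonal, while Alb, Ctsb and Lgmn move in the same direction in both cell classes.

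Among genes of monocyte identity, Lyz2, Plac8, Ifitm6 and Mgst1 were lower in the fibrosis members. Of 12 listed genes, all measured, these 4 were lower and none higher, beside 7.22% lower and 12.9% higher over all genes, with a median log2 ratio of -0.87 in members and 1.09 in lymphoid cells. In single cells, Lyz2 ran from 0 through a median of 188 to 323 UMIs per 10000 over the normal members and from 0 through 53.6 to 233 over the fibrosis members. For Plac8 these values were 0, 28.9 and 103 in normal and 0, 14.7 and 73.2 in fibrosis members. The cells of both libraries overlapped in each gene, and the upper quartile of the fibrosis cells for Lyz2 (107) lay below the normal median. As a class, Lyz2 (chromosome 10, 117277331 to 117282321) was at 157 (154 to 160) in normal and 67.0 (64.5 to 69.6) in fibrosis members, a ratio of 0.427 (0.409 to 0.446), or 0.449 without the members low in adaptor RNA. In lymphoid cells it went the other way, from 0.586 to 2.94. Plac8 (chromosome 5, 100553725 to 100572245) was at 37.2 (35.7 to 38.8) and 18.5 (17.2 to 19.9), a ratio of 0.497 (0.457 to 0.541), which became 0.529 and so no longer 2-fold without the members low in adaptor RNA. Ifitm6, an interferon-induced transmembrane gene of monocytes and neutrophils, had a ratio of 0.492 (0.372 to 0.644), and 0.524 without those cells. Mgst1, a glutathione transferase, was at 7.39 and 2.12, but lymphoid cells had 5.44 and 1.06. Members had 3.68 times (3.53 to 3.84) the Lyz2 level of patrolling monocytes in the normal and 3.03 times (2.82 to 3.25) in the fibrosis library. For Plac8 these factors were 1.98 (1.85 to 2.12) and 2.77 (2.43 to 3.17). Lyz2 and Plac8 were therefore also lower in fibrosis than in normal patrolling monocytes.

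The other genes of this list did not pass. Ms4a4c was at 5.34 (4.78 to 5.95) and 2.78 (2.28 to 3.35), a ratio of 0.520 (0.415 to 0.648). Ms4a6c had a ratio of 0.796 (0.695 to 0.911) and Vcan one of 1.95 (1.42 to 2.68). For the guanine deaminase gene Gda the ratio was 1.07 (0.859 to 1.33). Thbs1, the gene of thrombospondin 1, shows how few cells can set a level: its ratio was 1.24 (0.937 to 1.62), but 71.5% of its normal UMIs lay in 1 cell, and 9 normal against 26 fibrosis members had any, 11.1% and 51.0% beside 0.570% and 2.97% of lymphoid cells. Outside the list, Tyrobp was lower by the rule, at 20.8 (19.6 to 21.9) and 9.79 (8.83 to 10.8), a ratio of 0.472 (0.420 to 0.529) beside 1.02 in lymphoid cells. Its partner Fcer1g, at 19.0 (17.9 to 20.1) and 10.0 (9.08 to 11.1), did not pass, with a ratio of 0.530 (0.471 to 0.594) beside 1.11.

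Of the S100 and granule genes, 4 of 6 measured (10 listed) were lower and none higher, beside 7.22% and 12.9% over all genes, with a median log2 ratio of -1.44 (lymphoid cells -0.34). S100a4 (chromosome 3, 90603771 to 90606045), which encodes a calcium-binding protein linked to cell motility, was at 20.2 (19.1 to 21.4) in normal and 5.79 (5.06 to 6.59) in fibrosis members, a ratio of 0.286 (0.247 to 0.330) beside 0.546 in lymphoid cells. The median over cells was 20.98 in normal and 4.68 in fibrosis members, and the highest fibrosis cell, at 19.5, stayed below that normal median. Members had 2.57 times (2.32 to 2.85) the S100a4 level of patrolling monocytes in the normal and 4.09 times (3.11 to 5.44) in the fibrosis library. S100a4 was therefore also lower in fibrosis than in normal patrolling monocytes. S100a4 was present in 73 normal and 40 fibrosis members, and after thinning in 85.2% (75.6 to 92.1) and 56.9% (42.2 to 70.7), with 13.8% and 12.2% of lymphoid cells (unthinned 90.1% and 78.4% of members, 21.3% and 17.8% of lymphoid cells). S100a6 had a ratio of 0.475 (0.426 to 0.529), and 0.501 without the members low in adaptor RNA. The remaining members of this group that passed were the primary granule genes Mpo and Elane, which rested on single cells. Mpo, the myeloperoxidase of granulocyte and monocyte progenitors, had 97 UMIs in the normal members, 94 of them in 1 cell, and none in the fibrosis members, at least 20.6 times lower when 3 UMIs are allowed there. Elane had 33 UMIs, 25 of them in 1 normal cell, and Prtn3 79 UMIs, 41 of them in 1 cell.

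Of 17 measured interferon response genes (19 listed), 5 were lower, beside 7.22% over all genes, and 2 higher, close to the 12.9% over all genes, with a median log2 ratio of -0.33 (lymphoid cells 0.17). Over single cells, Ifitm3 had a median of 37.6 and a highest value of 88.1 in normal and of 13.9 and 40.4 in fibrosis members. As a class, Ifitm3 (chromosome 7, 141009586 to 141010770), an antiviral membrane protein gene, was at 36.5 (35.01 to 38.1) in normal and 13.9 (12.8 to 15.1) in fibrosis members, a ratio of 0.381 (0.347 to 0.419) with a lymphoid ratio of 0.789. Members had 2.09 times (1.95 to 2.25) the Ifitm3 level of patrolling monocytes in the normal and 1.51 times (1.33 to 1.72) in the fibrosis library. Ifitm3 was therefore also lower in fibrosis than in normal patrolling monocytes. Gbp2, an interferon-gamma-induced GTPase gene, was at 3.30 (2.87 to 3.79) and 0.994 (0.707 to 1.36), a ratio of 0.301 (0.208 to 0.426) with 0.964 in lymphoid cells. Cxcl10, a chemokine for T cells, was at 7.65 (6.97 to 8.37) and 2.45 (1.98 to 2.99), and the 3 normal cells richest in it held 57.4% of its normal UMIs. It had a UMI in 32.1% of normal and 54.9% of fibrosis members, beside 13.02% and 40.0% of lymphoid cells. After thinning these shares were 20.99% and 25.5% beside 7.87% and 26.6%, so that the fibrosis share was not above background. Isg15, a ubiquitin-like modifier gene, and Zbp1, a sensor of Z-form nucleic acid, had ratios of 0.392 (0.234 to 0.630) and 0.221 (0.110 to 0.407), but lymphoid ratios of 0.381 and 0.292.

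Other members of the list did not follow. Ifit2 had a ratio of 2.003 (1.32 to 3.06) and Ifi44 one of 4.98 (2.47 to 10.9), on 11 and 35 UMIs. Bst2, the gene of tetherin, was at 3.96 (3.47 to 4.48) and 3.90 (3.31 to 4.57), and Rsad2, the gene of viperin, at 1.37 (1.09 to 1.69) and 1.43 (1.08 to 1.85). Outside the list, and among the largest falls that lymphoid cells did not share, were Cxcl9 and Gbp5, both induced by interferon-gamma. Cxcl9 was at 4.66 (4.13 to 5.23) and 0.663 (0.433 to 0.971), a ratio of 0.142 (0.0914 to 0.213) that rested on 18 normal cells, the highest with 92 of 286 UMIs. Gbp5 had 66 and 5 UMIs, a ratio of 0.119 (0.0373 to 0.291).

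The interferon-stimulated response element, the sequence bound by interferon regulatory factors, was searched in the 250 bases before the RefSeq starts (GRCm38.p6) as GAAANNGAAA on either strand, since several lower genes of this list are known targets. It was found for 9 of the 14 list genes with a promoter entry, beside 3.46% of 27025 genes in all, 4.01% of 3739 measured genes, 3.69% of 271 lower genes and 3.00% of 467 higher genes. Of the 4 lower list genes with a promoter entry, 3 (75%) had a match, beside 64.3% of the list. Bst2 and Rsad2, which did not pass, had matches too. The 3 lower genes with a match are shown 5′ to 3′ on the strand of the gene. Matching letters are in capitals, with up to 30 bases each. A match is a description of the letters and not a bound site.
Cxcl10 (chr5:92349083-92349112, minus strand): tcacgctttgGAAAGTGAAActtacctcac
Gbp2 (chr3:142620594-142620623, plus strand): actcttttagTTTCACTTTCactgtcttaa
Isg15 (chr4:156200871-156200900, minus strand): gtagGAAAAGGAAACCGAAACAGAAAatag
The element of Gbp2 reads on the opposite strand and ends 49 bases before the RefSeq start. In the GENCODE vM21 model Gbp2 starts at 142620602, so there the element lies inside the gene. In Isg15 3 overlapping matches form one run. Ifitm3 was also lower and held no match in this window.

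In the list of lysosome and phagocytosis genes, 9 of 16 were higher, beside 12.9% over all genes, and none lower, with a median log2 ratio of 1.18 in members and 1.53 in lymphoid cells. Ctsb and Lgmn, the lysosomal proteases cathepsin B and legumain, were at 8.92 and 23.5 and at 1.595 and 9.05 in members. The same genes were at 3.67 and 18.2 and at 1.46 and 8.85 in lymphoid cells, so that in the fibrosis library Lgmn stood nearly level in both. Mertk, a receptor for the uptake of dying cells, was the only one of the 9 whose log2 ratio exceeded that of lymphoid cells by 1. It had 9 UMIs in normal and 43 in fibrosis members, a ratio of 7.48 (3.60 to 17.5) beside 3.09 in lymphoid cells. Its levels were 0.146 (0.0670 to 0.278) and 1.10 (0.793 to 1.48) in members beside 0.272 and 0.840 in lymphoid cells. The interval in members thus included the lymphoid level in both libraries.

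Of the scar-associated macrophage list 8 of 11 measured genes of 12 listed were higher, beside 12.9% over all genes (median log2 ratio 1.29, lymphoid cells 1.03). Mmp12, macrophage elastase, had no UMI in normal and 34 in fibrosis members, at least 17.7 times higher, but its level of 0.867 in members was below the 1.66 of lymphoid cells. Lpl and Cd63 likewise rose in lymphoid cells, by ratios of 13.1 and 4.76 beside 2.95 and 4.52 in members. Spp1, the osteopontin gene, was at 0.635 (0.451 to 0.868) and 1.55 (1.19 to 1.997) in members and at 4.22 and 3.27 in lymphoid cells, and its ratio of 2.45 was 1.86 without the members low in adaptor RNA. Fabp4, a lipid-binding protein gene of macrophages and endothelium, was at 1.17 and 4.94, a ratio of 4.22 (3.20 to 5.61), with 59 of 194 fibrosis UMIs in 1 cell. Lymphoid cells had 2.05 and 4.18, a ratio of 2.04, so its normal level in members was below theirs. Kupffer cell genes had 3 of 7 measured genes (11 listed) higher, beside the same 12.9% (median log2 ratio 0.98, lymphoid cells 2.26), among them the scavenger receptor gene Marco with 1 and 63 UMIs, a ratio of 98.7 (17.1 to 3958) beside 22.1 in lymphoid cells. Its level of 1.61 in fibrosis members was below the 2.34 of lymphoid cells.

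Among 14 myeloid transcription factors, 13 were measured and 1, Maf, was higher, not more than the 12.9% over all genes, with a list median of -0.01 (lymphoid cells 0.54). Maf (chromosome 8, 115682942 to 115707794), a factor of macrophage maturation that T cells also use, had a median over cells of 1.39 in normal and 5.14 in fibrosis members. As a class it was at 2.36 (1.99 to 2.78) in normal and 7.88 (7.02 to 8.81) in fibrosis members, a ratio of 3.34 (2.73 to 4.09). Its ratio was 3.62 without members low in adaptor RNA, and 1.46 in lymphoid cells, where its level was 4.75 and 6.91. Members had 0.754 times (0.605 to 0.937) the Maf level of patrolling monocytes in the normal and 0.676 times (0.586 to 0.778) in the fibrosis library. Maf was therefore also higher in fibrosis than in normal patrolling monocytes. Spi1, which encodes the myeloid master factor PU.1, had a ratio of 0.541 (0.429 to 0.677) and Irf8 one of 0.661 (0.525 to 0.828). Klf4 and Nr4a1 had ratios of 0.995 (0.812 to 1.22) and 0.931 (0.756 to 1.14).

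Further genes that exceeded the change in lymphoid cells by at least 1 on the log2 scale were the cholesterol exporter gene Abca1 (0.358 and 1.96, ratio 5.48, 3.38 to 9.25), the transcription factor gene Ets1 (1.04 and 3.95), and the membrane protein gene Ckap4 (0.814 and 3.08). Amotl1 was at 0.358 and 1.61, Basp1 at 0.374 and 1.504, and Ctla2a at 0.293 and 1.17. Lymphoid cells had 0.696 and 1.56 of Abca1, 8.13 and 11.3 of Ets1, 1.21 and 2.19 of Ckap4, 0.786 and 1.52 of Amotl1, 0.373 and 0.592 of Basp1, and 1.40 and 1.95 of Ctla2a. The members' levels of Ets1 and Ctla2a were thus below those of lymphoid cells in both libraries. The log2 ratio of Basp1 turned to -0.53 with a mitochondrial limit of 5%. Of the 12 largest rises, 3 rested on single cells. Cpe had all 48 fibrosis UMIs in 1 cell, C1s1 51 of 63 and Rspo3, a Wnt pathway activator, 72 of 92. Without the members low in adaptor RNA, no fibrosis UMI of Cpe was left and the ratio of C1s1 was 1.67 (0.655 to 4.24), and neither passed. The direction of Cpe, C1s1, Rspo3 and of Prtn3 above also turned under other choices of cells. On the lower side of the same ranking stood the hepatocyte genes Fabp1, Rbp4, Hal, Kng1, Gsta3 and Adh1, with ratios from 0.0245 to 0.206. They were present in lymphoid cells too, where Fabp1 was at 18.2 and 1.54 beside 14.3 and 0.510 in members. Nr4a2, an immediate early nuclear receptor gene, had 77 and 9 UMIs, a ratio of 0.183 (0.0807 to 0.366) with 0.689 in lymphoid cells.

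Of 12 measured inflammatory cytokine and chemokine genes (16 listed), 1 was higher, Cxcl1, and 1 lower, Il1rn, near the 12.9% and 7.22% over all genes, with a median log2 ratio of 0.27 (lymphoid cells 1.21). Cxcl1, a neutrophil attractant, had a ratio of 2.32 (1.39 to 3.93) beside 2.31 in lymphoid cells. The most abundant were Ccl6, at 7.26 (6.60 to 7.97) and 8.23 (7.36 to 9.18), and Ccl9, at 4.69 (4.16 to 5.26) and 6.70 (5.92 to 7.56). Il1b, the gene of interleukin 1 beta, was at 1.55 (1.25 to 1.89) and 1.40 (1.06 to 1.82) and had a UMI in 29 normal and 17 fibrosis members, 35.8% and 33.3% beside 5.70% and 6.57% of lymphoid cells. Il1rn, the interleukin 1 receptor antagonist, had 54 and 15 UMIs (ratio 0.435, 0.228 to 0.782), and 13 of the 15 lay in 1 fibrosis cell. 

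In the list of migration and adhesion genes 2 of 14 were higher and none lower, close to the 12.9% higher over all genes, among them the chemokine receptor gene Ccr1, with a ratio of 3.52 (1.91 to 6.80) and a lymphoid ratio of 4.21. The list median was 0.27 (lymphoid cells 0.62). Matrix remodelling and growth factor genes had 3 of 11 measured genes (21 listed) higher, the metalloproteinase genes Mmp8, Mmp12 and Mmp14, and a median of 0.30 (lymphoid cells 1.42). Fn1 (chromosome 1, 71585520 to 71653200) was the most abundant of that list, at 12.9 (11.99 to 13.8) and 20.9 (19.5 to 22.4), a ratio of 1.63 (1.47 to 1.79), which did not pass. Its median over cells was 5.81 in normal and 7.55 in fibrosis members. A single normal cell held 291 of its 791 normal UMIs (36.8%). The ratio was 2.23 (1.98 to 2.50) without the richest cell of each library and 1.97 (1.73 to 2.24) without the 3 richest, on either side of the 2-fold limit. Fn1 exceeded 50 UMIs per 10000 in 1 of 81 normal and 7 of 51 fibrosis members, and 5 of the 7 had at most 1 Plac8 UMI.

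The lists that follow are small, and their counts stand beside 12.9% higher and 7.22% lower over all genes. Of the pattern recognition list, 1 of 7 measured genes was higher, close to that share, the NF-kB inhibitor gene Nfkbia at 5.53 and 12.3 with a lymphoid ratio of 2.54 beside 2.22 in members. Cd14, a co-receptor for lipopolysaccharide, had a ratio of 1.94 (1.45 to 2.60). The list median was -0.03 (lymphoid cells 1.35). None of the 11 measured glycolysis genes (median 0.18, lymphoid cells 0.27), 12 immediate early genes (0.16 and 0.36) and 6 measured non-classical monocyte genes (-0.12 and 0.61) passed in either direction. Among antioxidant and iron genes the iron exporter gene Slc40a1 and the metallothionein gene Mt2 were higher (2 of 9, median 0.04, lymphoid cells 0.29), and Mt2 had a ratio of 2.41 (0.952 to 6.38) without the members low in adaptor RNA. Of 7 heat shock genes (median -0.44, lymphoid cells -0.07) 2 were lower, Hspa1a from 8.35 to 1.17 and Hspa1b from 8.76 to 1.12, and lymphoid cells had ratios of 0.154 and 0.138 beside 0.140 and 0.128 in members. Cell cycle genes had 2 of 5 measured genes higher (median 0.60, lymphoid cells 0.60), Mki67 and Top2a, and 1 fibrosis cell held 30 of 46 Mki67 UMIs.

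Markers of other cells were read as summed levels. Hepatocyte markers (6 genes, all lower) fell from 102 to 10.7 UMIs per 10000 in members and from 137 to 18.0 in lymphoid cells. Mesenchymal markers rose from 2.13 to 9.48 beside 2.63 to 22.6 in lymphoid cells, with 4 of 4 measured genes higher. Without the member richest in Dcn, which in the normal library held 78 of 94 Dcn UMIs, they were at 0.319 (0.192 to 0.498) and 7.32 (6.48 to 8.23). Sinusoidal endothelial markers were at 10.7 and 20.8 beside 17.5 and 28.0, with 2 of 6 higher. Erythroid markers (3 of 3 measured lower) fell from 2.90 to 0.408 beside 59.6 to 3.13. B cell and plasma cell markers were at 87.8 and 6.86 (2 of 3 measured lower), of which Igkc in 1 normal cell made up most. T and NK cell markers were at 1.68 and 2.42 (Trac, 1 of 2 measured, higher), neutrophil markers at 1.22 and 1.55 (Mmp8, 1 of 2, higher), and plasmacytoid dendritic cell markers at 8.43 and 7.04 (none of 2 called). The part of these RNAs in the other results was not tested beyond the values given for lymphoid cells.

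Members varied widely in MHC class II RNA. MHC class II genes as a list had 2 of 7 lower, beside 7.22% over all genes, H2-DMa and Ciita, with a median log2 ratio of -0.49 (lymphoid cells 0.06), and Cd209a, a lectin gene of monocyte-derived and type 2 dendritic cells, was the one of 3 measured dendritic cell genes (8 listed, median -0.84, lymphoid cells 0.06) that was lower. The ratios of Ciita and Cd209a, 0.479 and 0.475, were 0.521 and 0.506 without the members low in adaptor RNA. The summed level of H2-Aa, H2-Ab1, H2-Eb1 and Cd74 had a median over cells of 9.39 in normal and 8.13 in fibrosis members, with a highest cell of 584 and 487. Among members with adaptor RNA, 11 of 72 normal and 8 of 41 fibrosis cells exceeded 100 UMIs per 10000, 15.3% (7.88 to 25.7) and 19.5% (8.82 to 34.9), and 47 and 29 were under 20. These are ranges of a continuous value and not types.

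Levels of genes outside the choice differed between these ranges. In the normal library, members over 100 had 6.61 UMIs of Cd209a per 10000, while those under 20 had 0.137. Fibrosis members over 100 had 4.39, and those under 20 had 0.0857, on 2 UMIs. Lyz2 was at 108 and 196 in these normal ranges and at 58.1 and 87.9 in the fibrosis ones. C1qa was at 0.551 (on 5 UMIs) and 2.44 in normal and at 13.3 (10.5 to 16.7) and 1.63 (1.15 to 2.24) in fibrosis members. Fn1 was at 3.20 and 18.9 in normal and at 7.89 and 32.0 in fibrosis members. Without the member richest in Fn1, which lay in the lower range of each library, the lower range stood at 11.6 (10.4 to 12.7) and 28.5 (26.3 to 30.8). The 14 normal members from 20 to 100 lay between the end ranges for Cd209a, Lyz2 and Fn1. The 4 fibrosis members from 20 to 100 did not, with Cd209a at 0, Lyz2 at 53.9 and Fn1 at 2.99. Of the genes that served in the choice, whose levels are a description only, Chil3 was at 0.22 and 8.38 in normal and 1.40 and 13.4 in fibrosis members, and Ccr2 at 10.9 and 10.8 and at 19.6 and 13.9. At least 3 Cd209a UMIs were found in 11 of 72 normal and 2 of 41 fibrosis members with adaptor RNA.

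**Figure D4:**
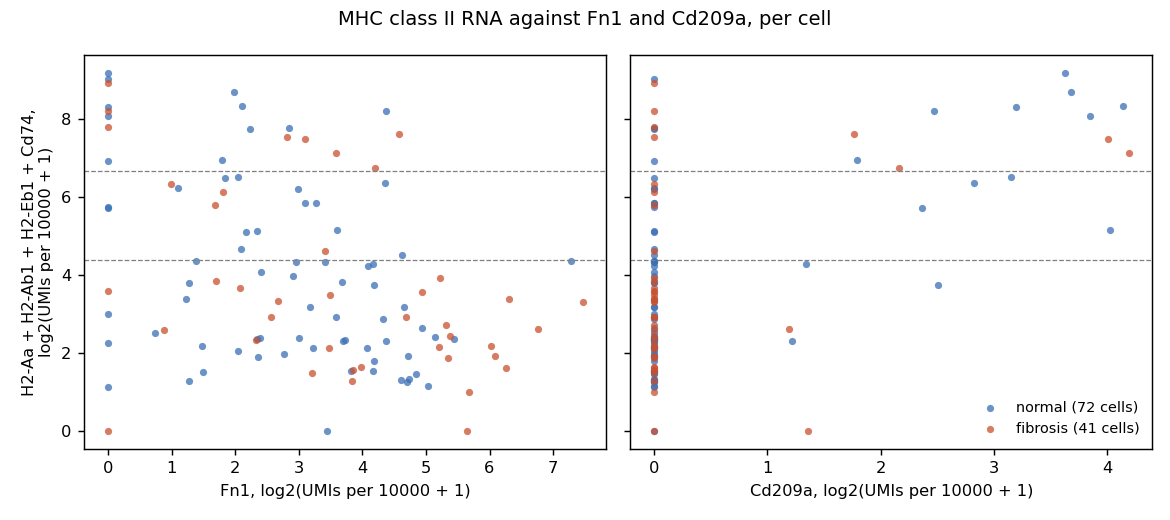
Summed level of H2-Aa, H2-Ab1, H2-Eb1 and Cd74 against Fn1 (left) and Cd209a (right) in the 72 normal (blue) and 41 fibrosis (red) members with adaptor RNA, each point a cell and both axes log2(UMIs per 10000 + 1); dashed lines mark 20 and 100 UMIs per 10000. Cells with over 50 UMIs of Fn1 per 10000 lie under the lower line, and the cells with over 5 UMIs of Cd209a per 10000 lie above it.

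Correlations across members with adaptor RNA, thinned to 2000 UMIs, are a description with no test, and cells of a library share its background RNA. Spearman's rho of MHC class II was -0.41 (normal, 72 cells) and -0.38 (fibrosis, 41 cells) with Vcan, and -0.35 and -0.44 with Fn1. Vcan and Fn1 rose together in both, with rho 0.42 and 0.53. Plac8 and Ifitm3 did so as well, with 0.44 and 0.60.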

How the data were processed

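Single-cell RNA was measured in liver non-parenchymal cells of 1 normal and 1 fibrosis mouse. The authors aligned the reads to mm10 with Cell Ranger 3.0.1 (per the submitters' processing notes) and deposited UMI counts per gene and cell, without normalization. The study's methods state that Scrublet excluded doublets; no caller was run here. Cells under 10% mitochondrial UMIs with over 200 genes were kept. Genes listed in both tables (19219) were compared; mitochondrial, ribosomal-protein, haemoglobin and immunoglobulin genes were left out of gene counts. Counts were summed per class and library and divided by the summed UMIs. Thinning drew 2000 UMIs per cell. With 1 library per condition no test was made.

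Members and gene lists were chosen with earlier results of these data known. Named genes were rule and marker genes, list genes past 2-fold or most abundant, and the 12 largest and 12 smallest ratios among genes with at least 1 UMI per 10000 whose log2 ratio differed by at least 1 from that of lymphoid cells (ordered with 0.05 added to each level; gene models named Gm or Rik left out). Gene positions are GENCODE vM21 on GRCm38. The comparison was run on simulated summed counts with planted changes and counting error only, which leaves out variation between cells and between mice. Python 3.11.15, numpy 2.4.6, scipy 1.17.1, pandas 2.3.3 and matplotlib 3.10.9 were used. Alternatives changed the rule, the scaling, the cells left out and the limits. Some genes that these rules name are not reported here.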

Additional observations from a re-analysis of the deposited data

How the results depend on the processing

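No paired analysis was possible because each condition is 1 library. Of 15 alternatives that gave values for the 53 named genes and 19 lists, 634 of 770 gene values and all but 13 of 285 list medians stayed within the interval of the reported value. The share of fibrosis members moved to 1.19% with at least 3 UMIs of Ly6c2, Chil3 and F13a1 and to 3.64% without the limit on Trem2 and Gpnmb. The share of normal members moved to 1.997% with a mitochondrial limit of 5% (of 1853 cells) and to 0.799% when cells were thinned first. The fibrosis shares at these settings, 0.997% (of 1705 cells) and 0.862%, stayed within the interval of the reported share. Counts of higher and lower genes moved to 380 and 153 without genes past 2-fold in lymphoid cells, 1062 and 537 at a fold of 1.5, 972 and 529 at a least level of 0.2, 252 and 189 at 1, and 1118 and 575 with none. The other alternatives, including the removal of members under 6 adaptor UMIs per 10000, which was chosen after seeing the data and gave 573 and 356 (480 and 306 of them in common), left both counts within 1.5 times. Without the limit on Trem2 and Gpnmb 451 and 433 genes passed, of which 232 and 230 were in common. Similar counts did not mean the same genes: 229 and 208 were in common at the mitochondrial limit of 5% (515 and 321 genes) and 235 and 231 when cells were thinned first (440 and 362).

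Log2 ratios turned for 5 genes: Cpe to -0.55 (mitochondrial limit 5%) and -0.0438 (no Trem2 and Gpnmb limit), Basp1 to -0.53 (mitochondrial limit 5%), Rspo3 to -2.27 (thinned first), C1s1 to -2.68 (mitochondrial limit 5%), -1.03 (thinned first) and -0.23 (without the 3 cells with most of its UMIs), and Prtn3 to 1.32, 3.43 and 0.65 under the same 3. The cause was not tested, except that without the 3 richest cells C1s1 and Prtn3 lose the cells that held most of their UMIs. Depth limits genes with few UMIs: 3 UMIs are 0.0488 per 10000 in normal and 0.0765 in fibrosis members. Values without the member richest in Fn1, C1qa or Dcn were also chosen after seeing the data.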
